A study of Mus musculus with 5 samples.

Results

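Ubiquitin-specific proteases, the largest family of deubiquitinating enzymes, were examined in mouse embryonic stem (ES) cells that lacked Dicer and in wild-type ES cells. Dicer is the enzyme that releases mature microRNAs from their hairpin precursors. The genes were all those with a symbol of Usp followed by a digit, leaving out Usp9y, and each was read from its brightest probe set, by the mean of all 5 arrays. This gave 54 of the 19938 genes that had a probe set with a single symbol. Of these, 52 are named as members of the family, not all of which have been shown to be active proteases. Usp6nl encodes a GTPase-activating protein for Rab GTPases, and Usp46os2 is a transcript from the strand opposite Usp46, so both matched by name alone. There were 2 arrays of Dicer-deficient cells and 3 of wild-type cells, each from asynchronous cultures that the design text describes as biological replicates. Cells of both genotypes were grown feeder-free in a mixture of serum medium with LIF and N2B27 medium with 2 kinase inhibitors. How Dicer was inactivated, which cell lines were used and whether each genotype is 1 clone are not given in the sources used here. Loss of Dicer and any other difference between the lines cannot be told apart. Early G1 samples are not analysed here.

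Ubiquitin is attached to proteins by a cascade of activating, conjugating and ligating enzymes, and deubiquitinases cut it off again. Depending on the chain, ubiquitin marks a protein for the proteasome or alters its activity, partners or place in the cell. The roles given for single members come from work on human and mouse cells. Ubiquitin-specific proteases use a catalytic cysteine, and individual members are known for work on histones, DNA repair, the cell cycle, receptor traffic and ubiquitin recycling. In ES cells, members acting on histones H2A and H2B have been studied for roles in gene control during self-renewal and differentiation.

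Values are log2 signals as deposited, and a change is the Dicer-deficient minus the wild-type mean on that scale. A gene was called when limma's moderated test gave a Benjamini-Hochberg adjusted p below 0.05 over all 19938 genes. The arrays had medians of 5.39 to 5.45 and lower quartiles of 4.14 to 4.18. Whether a signal exceeded background could not be checked, which leaves the size of a change uncertain where a group lies below the array median. Precision is limited by the number of arrays. Dicer1, at 7.20 and 6.84 in Dicer-deficient cells against 8.84, 8.82 and 8.85 in wild-type cells, had a change of -1.82, and whether its probe set reads the deleted part is not known here. Of 8 ES cell markers, 6 did not pass the test, among them Pou5f1, Nanog and Sox2, whose signals were 10.09 or more on all 5 arrays, and Esrrb and Tdgf1 fell. Of 8 trophectoderm markers, 3 rose (Krt8, Gata3 and Krt18) and 0 fell. The mean signal of the 8 was 6.55 and 6.47 in Dicer-deficient cells against 6.09 to 6.21 in wild-type cells. Eomes was lower on both Dicer-deficient arrays than on any wild-type array without passing the test (change -0.49, adjusted p = 0.0977 in limma). Hand1 and Tfap2c had changes of -0.05 and -0.03 with overlapping groups. Cdx2 and Elf5 lay below the median on every array. The 5 measured mesoderm markers, of which Kdr and Gsc rose, averaged 5.68 and 5.80 in Dicer-deficient cells against 5.35 to 5.57 in wild-type cells. Mesp1, Mixl1 and Hand1 had changes of 0.10, 0.015 and -0.05 with overlapping groups, and Mesp1 and Mixl1 lay below the median on every array. The mesoderm marker T had no probe set with that symbol alone. Of 6 neural markers, Pax6 and Map2 rose and Olig2 fell, and Lama1 was the 1 of 8 primitive endoderm markers that fell. The neural markers averaged 6.14 and 6.26 in Dicer-deficient cells against 6.08 to 6.19 in wild-type cells. For primitive endoderm the averages were 5.33 and 5.31 against 5.38 to 5.56 in wild-type cells. None of 8 fibroblast markers was called by limma. Over all 19938 genes, 8.48% rose and 8.6% fell. Of these marker calls, those of Tdgf1, Krt8, Gata3 and Pax6 were kept without each array in turn, and the others were lost without 1 or more arrays (adjusted p up to 0.306). The part of these other cell types in any result was not tested. In bulk RNA, fewer cells of a type and less RNA per cell cannot be told apart.

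Of the 54 genes, 7 rose and 5 fell in Dicer-deficient cells, and 42 did not pass the test. The genes that rose were Usp25, Usp46, Usp47, Usp40, Usp53, Usp33 and Usp5, and those that fell were Usp26, Usp44, Usp11, Usp36 and Usp28. The share called was 22.2%, against 17.1% of all genes. It was 13.0% against 8.48% for rises and 9.26% against 8.6% for falls. Among genes with a mean signal above the median of all probe sets, 11 of 42 members were called, or 26.2%, against 27.9% of the 11168 genes of that kind, so the family's share was near that of other genes with such signals. The median change was 0.03 over the members and 0.01 over all genes. Most changes were small. They were under 0.25 in size for 36 members, and only Usp25 and Usp26 changed by 2-fold or more on the scale of the fit.

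**Figure D1:**
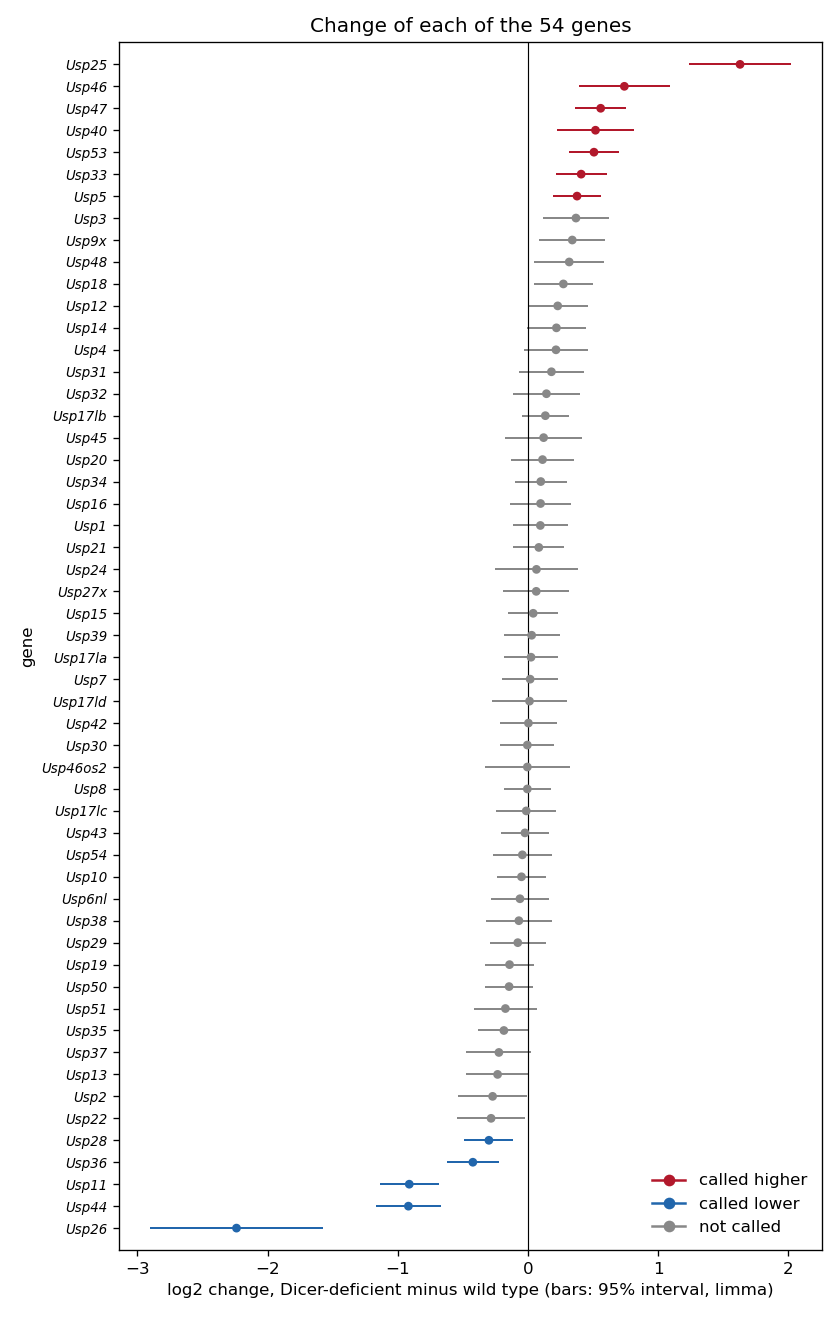
Log2 change, Dicer-deficient minus wild type, of each of the 54 genes, with the 95% interval of limma's fit as a bar; the colour gives the call. Changes run from -2.24 for Usp26 to 1.63 for Usp25, and 36 of the 54 points lie within 0.25 of 0.

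**Figure D2:**
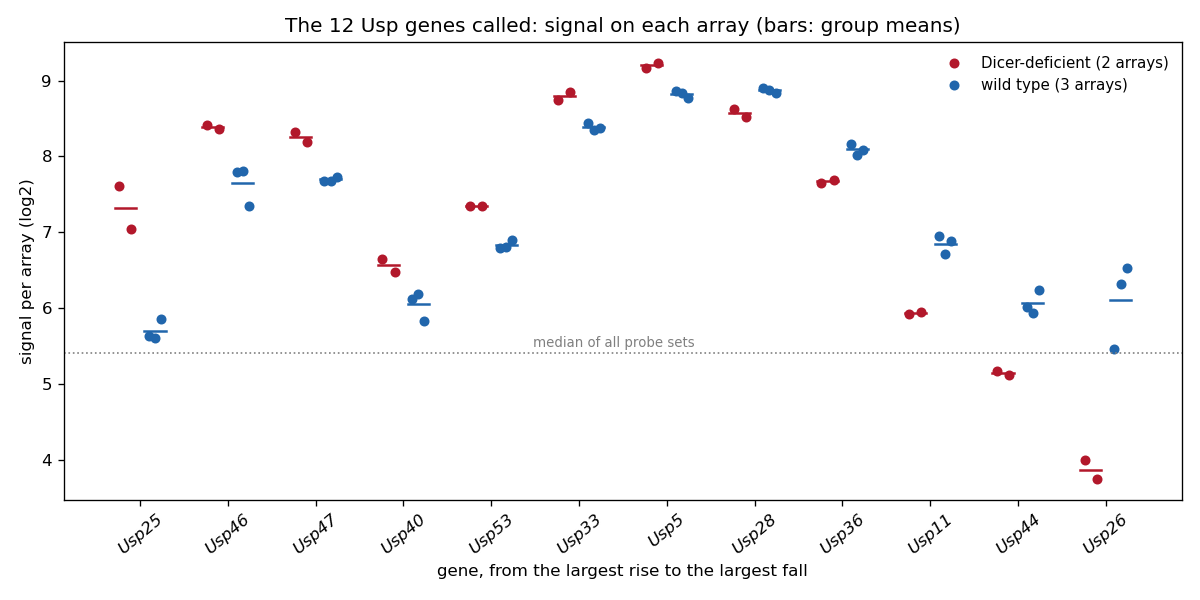
Log2 signal of the 12 called genes on each array, with Dicer-deficient arrays in red and wild-type arrays in blue; short bars are group means and the dotted line is the median of all probe sets. The groups do not overlap for any of the 12 genes, which were called from these same arrays, nor for 39.9% of all genes. The Dicer-deficient signals of Usp44 and Usp26 lie below the dotted line.

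Among members known for work in signalling pathways, Usp25 had the largest rise of the family. Usp25 cleaves ubiquitin chains on adaptors of cytokine and innate immune signalling and stabilises tankyrases, which act in the Wnt pathway. Its signal was 7.61 and 7.04 in Dicer-deficient cells, against 5.63, 5.61 and 5.85 in wild-type cells. The Dicer-deficient arrays differed from each other by more than the wild-type arrays did, but both lay well above all 3. The change was 1.63 (SE 0.165, adjusted p = 0.000711 in limma), a level 3.09-fold higher. Usp9x, an X-linked protease with roles in Smad4 deubiquitination and cell polarity, had 11.02 and 10.80 in Dicer-deficient cells against 10.70, 10.54 and 10.47 in wild-type cells. The groups did not overlap, but the change of 0.34 did not pass (adjusted p = 0.0672, 95% interval 0.10 to 0.58). It passed with array weights (adjusted p = 0.0337), with an intensity trend (0.0372), without dim genes (0.039) and after quantile normalization again (0.0174). Those were 4 of 15 alternative fits, and it did not pass in the others, which include each fit that left out an array. Usp18, which removes the ubiquitin-like ISG15 from proteins and dampens interferon signalling, had 4.57 and 4.40 against 4.27, 4.26 and 4.11 in wild-type cells. Its signals lay below the median on every array (change 0.27, adjusted p = 0.0947). Usp4 was higher on both Dicer-deficient arrays than on any wild-type array without passing the test, with a change of 0.22. Usp15 and Usp34, which act in TGF-beta and Wnt signalling, had changes of 0.04 and 0.10 with overlapping groups.

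Of 10 measured members that act on histones or pair with those that do, 1 rose and 1 fell. The share called was 20%, near the 17.1% of all genes. Usp46, which with its close relative Usp12 is activated by the WD40 protein Wdr48, rose. Its signal was 8.42 and 8.36 in Dicer-deficient cells against 7.80, 7.81 and 7.34 in wild-type cells (change 0.74, SE 0.146, adjusted p = 0.0125). Wild-type array 3 was lower than the other wild-type arrays, and without it the change was 0.59. Usp46os2, from the opposite strand, had a change of -0.01. Usp12 had 0.23, with the groups apart but adjusted p = 0.170. Usp44, a protease of histone H2B that also restrains the anaphase-promoting complex at the spindle checkpoint, fell. It had 5.17 and 5.12 in Dicer-deficient cells, against 6.01, 5.94 and 6.24 in wild-type cells. The change was -0.92 (SE 0.104, adjusted p = 0.00118), and since the Dicer-deficient signals lie below the array median its size is uncertain.

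The best known histone proteases of the group did not pass. Usp16, which acts on H2A, had 7.18 and 7.36 in Dicer-deficient cells against 7.23, 7.23 and 7.06 in wild-type cells (change 0.10, adjusted p = 0.622). Usp21, another H2A protease, had 8.77 and 8.63 against 8.64, 8.62 and 8.59 in wild-type cells (change 0.08, adjusted p = 0.611). Their intervals were -0.13 to 0.32 and -0.10 to 0.27. Usp22, the catalytic subunit of the deubiquitinating module of the SAGA coactivator, had 8.71 and 8.99 against 9.03, 9.24 and 9.13 in wild-type cells. Both Dicer-deficient values lay below the wild-type range, with a change of -0.28 (adjusted p = 0.137). Usp3, an H2A protease, was at 7.37 and 7.50 against 6.90, 7.11 and 7.19 in wild-type cells. This was just short of the threshold (change 0.37, adjusted p = 0.0521). Usp3 passed in 3 of 15 alternative fits, with array weights (0.0276), without dim genes (0.0291) and after median centring (0.0380). No fit that left out an array called it. Usp27x, Usp42 and Usp51 had changes of 0.06, 0.00 and -0.17 with overlapping groups.

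Of 10 members known for DNA repair, p53 control or the cell cycle, 1 rose and 2 fell. All 10 had a mean signal above the median of all probe sets. Their share called, 30%, was near the 27.9% of all genes of that kind. Usp47, which stabilises DNA polymerase beta in base excision repair, had 8.32 and 8.19 in Dicer-deficient cells against 7.68, 7.68 and 7.73 in wild-type cells. The groups were well apart, and the level was 1.47-fold higher (change 0.56, SE 0.0800, adjusted p = 0.00316). Usp11, an X-linked protease of homologous recombination that acts with Brca2 and Palb2, had 5.92 and 5.95 in Dicer-deficient cells against 6.95, 6.71 and 6.88 in wild-type cells. The level was 1.88-fold lower (change -0.91, SE 0.0933, adjusted p = 0.000745). Usp28, which stabilises Myc and binds 53BP1, had 8.62 and 8.52 against 8.90, 8.87 and 8.84 in wild-type cells. This was the smallest of the 12 called changes at -0.30 (SE 0.0777, adjusted p = 0.0361).

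Usp7 and Usp1, prominent proteases of this group, did not pass. Usp7, which acts on Mdm2, p53 and Dnmt1, had 10.57 and 10.45 in Dicer-deficient cells against 10.60, 10.45 and 10.43 in wild-type cells. Its change was 0.02, with an interval of -0.19 to 0.22 (adjusted p = 0.942). Usp1, which with Wdr48 deubiquitinates Fancd2 and PCNA, had 8.61 and 8.46 against 8.42, 8.52 and 8.38 in wild-type cells (change 0.10, adjusted p = 0.590). Usp2 and Usp37, both linked to cyclins, had changes of -0.27 and -0.22 with both Dicer-deficient values below the wild-type range. Usp48 had 0.32 with both above the wild-type range (adjusted p = 0.106). It passed in 1 of 15 alternative fits, after quantile normalization again (0.0290). Usp10 and Usp45 had -0.05 and 0.12.

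Of the 3 members that recycle ubiquitin or work at the proteasome, 1 rose and 2 did not pass, where 17.1% of all genes were called. The groups did not overlap for any of the 3, as they did not for 39.9% of all genes. Usp5, also called isopeptidase T, disassembles unanchored ubiquitin chains, and it had 9.17 and 9.23 in Dicer-deficient cells against 8.86, 8.84 and 8.77 in wild-type cells. This rise of 0.38 was 1.30-fold (SE 0.0773, adjusted p = 0.0146). Usp13, its close relative, had -0.23 (adjusted p = 0.180). Usp14, which trims chains on proteins bound to the proteasome, had 9.25 and 9.38 in Dicer-deficient cells against 9.22, 9.03 and 9.04 in wild-type cells (change 0.22, adjusted p = 0.179).

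Of 7 measured members at membranes and organelles, Usp33 alone was called in limma, or 14.3%, against 17.1% of all genes. Usp33 acts on receptors and on the centrosomal protein Cp110. It had 8.74 and 8.85 in Dicer-deficient cells against 8.44, 8.35 and 8.37 in wild-type cells (change 0.41, SE 0.0803, adjusted p = 0.0121). Its close relative Usp20 had a change of 0.11 with overlapping groups. Usp8, of endosomal sorting, and Usp30, of the mitochondrial outer membrane, both had -0.01 (intervals -0.18 to 0.17 and -0.21 to 0.20). Usp19, Usp32 and Usp35 had changes of -0.14, 0.14 and -0.19. Of the RNA and nucleolus group, Usp36, a nucleolar protease that supports ribosome production, had 7.65 and 7.69 in Dicer-deficient cells against 8.17, 8.02 and 8.09 in wild-type cells. The groups were clearly apart, and Usp36 was 1.34-fold lower (change -0.42, SE 0.0813, adjusted p = 0.0111). Usp39, a splicing factor without protease activity, had 0.03.

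Usp26, an X-linked member known from the testis, fell furthest. It had 3.99 and 3.74 in Dicer-deficient cells, against 5.46, 6.32 and 6.53 in wild-type cells. The wild-type arrays spread over more than 1 log2 unit, with array 1 lowest, and the Dicer-deficient signals lay below the lower quartile of each array. The fitted change was -2.24 (SE 0.282, adjusted p = 0.00186), and no fold is given because the lower signal may be background. The other germline members did not pass. Usp29, of the imprinted Peg3 region, had 3.94 and 3.79 in Dicer-deficient cells against 3.86, 4.01 and 3.96 in wild-type cells. It lay below the lower quartile on every array, as did Usp17la (3.40 and 3.32 against 3.39, 3.39 and 3.23 in wild-type cells) and the X-linked Usp51 (3.72 and 3.98 against 3.98, 3.98 and 4.11 in wild-type cells). Usp17ld had 10.42 and 10.73 against 10.62, 10.66 and 10.41 in wild-type cells. The Usp17l genes are closely related copies on chromosome 7. Their signals were far apart, but whether each probe set reads its gene alone was not tested. Usp17lb and Usp17lc had wild-type means of 4.81 and 4.58 and changes of 0.13 and -0.01.

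Of the 5 X-linked members, Usp26 and Usp11 fell, and Usp9x, Usp27x and Usp51 did not pass. Over the 739 genes of chromosome X tested, 7.98% fell and 9.61% rose. Of the other members, 48 were on autosomes, and Usp46os2 was not matched to a chromosome.

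Among members for which protease activity has been doubted or was long not seen, Usp53, a tight junction protein, rose. It had 7.34 and 7.34 in Dicer-deficient cells against 6.79, 6.81 and 6.90 in wild-type cells (change 0.51, SE 0.0777, adjusted p = 0.00425). Usp54 and Usp50 had -0.04 and -0.15. Of the 5 less studied members, Usp40 had 6.65 and 6.48 in Dicer-deficient cells against 6.12, 6.19 and 5.83 in wild-type cells. The call of its rise, 0.52 (SE 0.122, adjusted p = 0.0252), was lost in 4 of the 5 fits that left out an array. Usp24, Usp31, Usp38 and Usp43 had changes between -0.07 and 0.18, with overlapping groups, as had Usp6nl with -0.06. Of 3 members with several probe sets, Usp24 gave 0.07 and -0.14 from its 2 probe sets, Usp31 gave 0.18 and -0.01, and Usp54 gave -0.04 and -0.03.

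The groups did not overlap for 27 members, or 50.0%, against 39.9% of all genes. Both Dicer-deficient values lay above the wild-type range for 15 members (20% of all genes) and below it for 12 (19.9% of all genes). Of these, 12 were the called members. The other 15 were Usp3, Usp9x, Usp18, Usp48, Usp12, Usp14, Usp4 and Usp17lb, which were higher on both Dicer-deficient arrays, and Usp22, Usp2, Usp13, Usp35, Usp37, Usp50 and Usp19, which were lower. Their changes ran from -0.28 to 0.37, and limma called none of them.

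The calls differed in how far they rested on 1 array. Usp25 and Usp11 kept an adjusted p below 0.05 without each array in turn. For Usp25 the change was 1.34 without Dicer-deficient array 1 and 1.91 without Dicer-deficient array 2. Usp44 missed the threshold without Dicer-deficient array 2 (adjusted p = 0.0520) and Usp47 without Dicer-deficient array 1 (0.0512). Usp26, Usp53, Usp36 and Usp46 lost their call without either Dicer-deficient array, with adjusted p from 0.0592 to 0.183. Usp33 and Usp5 lost it without those arrays and without wild-type array 2 (0.0617 to 0.106), and Usp40 also without wild-type array 1 (0.0580 to 0.252 over these 4 fits). Usp28 missed the threshold whichever of the 5 arrays was left out (0.0514 to 0.173). Each of the 12 changes kept its direction in these 5 fits, as it had to where the groups do not overlap.

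**Figure D3:**
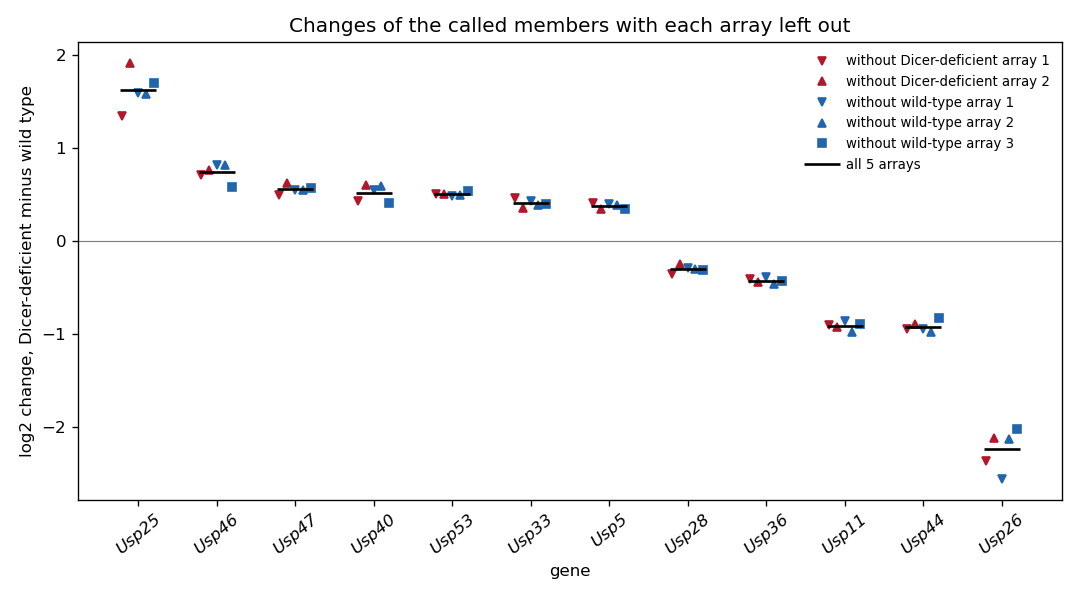
Log2 change, Dicer-deficient minus wild type, of the 12 called genes with all 5 arrays (black bars) and with each array left out (symbols). Every symbol lies on the same side of 0 as its black bar, as it must where the groups do not overlap. Usp25 ranges from 1.34 to 1.91 and Usp26 from -2.56 to -2.03.

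Promoters were set beside the changes because CG dinucleotides, the targets of DNA methylation, are dense in the promoters of most widely used genes. RefSeq promoter windows of 300 bases (250 before and 50 after the annotated start, GRCm38.p6) were matched for 41 members. Not matched were Usp1, Usp5, Usp9x, Usp14, Usp18, Usp22, Usp33, Usp39, Usp42, Usp43, Usp44, Usp46os2 and Usp53. The motif searched was CG, which reads the same on both strands. The median count was 27 over the members, taking the richer of 2 windows for Usp6nl, and 7 over all 32851 windows. At least 20 were found in 61.0% of the members and in 26.5% of all windows. All windows were taken without regard to signal, while each member was counted once. Whether this difference is particular to the family was not tested. Among called members with a window, the 4 that rose had 54 (Usp25), 45 (Usp47), 38 (Usp46) and 11 (Usp40). The 4 that fell had 35 (Usp28), 33 (Usp36), 8 (Usp11) and 5 (Usp26). The 2 X-linked members that fell thus had few, but so did members that did not pass, such as Usp10 with 8 and Usp51 with 6. Shown here are the 2 richest windows of members that rose and the 2 poorest of members that fell, chosen after their values were seen, 5′ to 3′ on the gene's strand with each CG in capitals. The windows lie at chr16:77013819-77014118 (plus strand) for Usp25, chr7:112023256-112023555 (plus strand) for Usp47, chrX:20703659-20703958 (plus strand) for Usp11 and chrX:51801184-51801483 (minus strand) for Usp26.
Usp25: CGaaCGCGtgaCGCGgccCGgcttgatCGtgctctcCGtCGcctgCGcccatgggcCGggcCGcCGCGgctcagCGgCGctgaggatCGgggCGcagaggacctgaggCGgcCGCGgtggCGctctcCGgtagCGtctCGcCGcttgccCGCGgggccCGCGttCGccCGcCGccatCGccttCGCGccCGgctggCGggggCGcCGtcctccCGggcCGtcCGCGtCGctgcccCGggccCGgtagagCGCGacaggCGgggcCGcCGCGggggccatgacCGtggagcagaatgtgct
Usp47: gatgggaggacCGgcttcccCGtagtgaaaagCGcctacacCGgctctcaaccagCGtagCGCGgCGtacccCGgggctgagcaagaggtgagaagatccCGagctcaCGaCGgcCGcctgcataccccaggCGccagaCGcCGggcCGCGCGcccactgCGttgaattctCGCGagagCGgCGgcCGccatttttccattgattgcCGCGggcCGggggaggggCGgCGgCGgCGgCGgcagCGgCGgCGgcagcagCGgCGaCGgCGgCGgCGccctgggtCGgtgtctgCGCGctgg
Usp11: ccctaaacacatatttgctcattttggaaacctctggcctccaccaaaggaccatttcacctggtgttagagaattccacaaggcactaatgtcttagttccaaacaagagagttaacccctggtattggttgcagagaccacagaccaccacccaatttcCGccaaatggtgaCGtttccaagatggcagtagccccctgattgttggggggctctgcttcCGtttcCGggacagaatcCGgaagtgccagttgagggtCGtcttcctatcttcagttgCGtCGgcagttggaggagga
Usp26: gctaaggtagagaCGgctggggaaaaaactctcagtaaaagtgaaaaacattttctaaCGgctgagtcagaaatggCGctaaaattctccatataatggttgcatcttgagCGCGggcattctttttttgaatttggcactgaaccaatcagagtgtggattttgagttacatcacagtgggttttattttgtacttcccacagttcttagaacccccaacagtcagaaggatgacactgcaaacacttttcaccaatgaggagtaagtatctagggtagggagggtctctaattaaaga

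**Figure D4:**
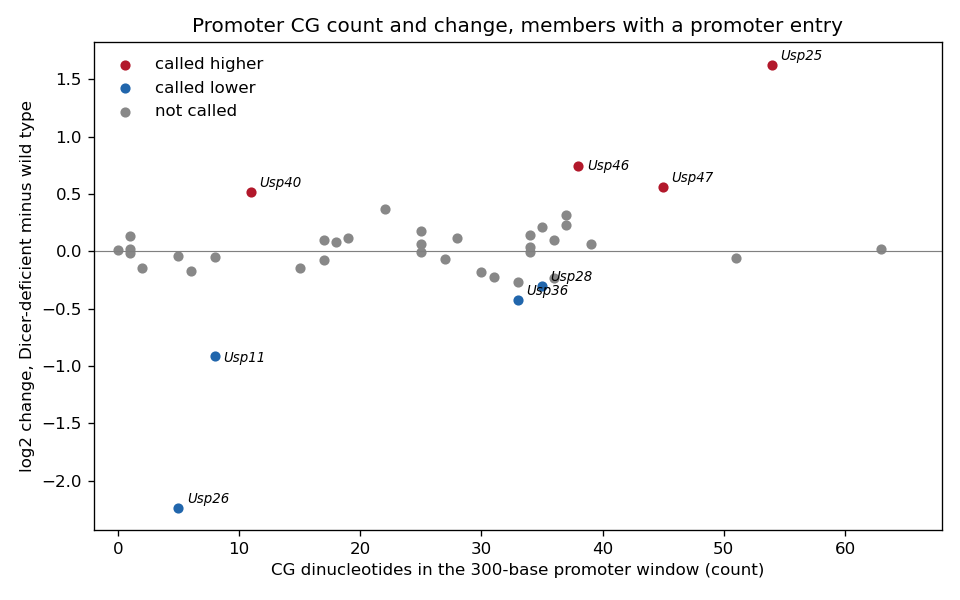
Number of CG dinucleotides in the 300-base promoter window (x axis) and log2 change, Dicer-deficient minus wild type (y axis), of the 41 members with a window; the colour gives the call. Usp26 and Usp11 lie at 5 and 8 CG and Usp25 at 54, while most members lie near a change of 0 at any count.

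The other deubiquitinase families were read in the same fit. Of 38 measured genes, 5 rose and 4 fell, with a median change of 0.04. The share called was 23.7%, against 17.1% of all genes. It was 27.9% among all genes with a mean signal above the median of all probe sets. In the ubiquitin C-terminal hydrolase family, Uchl3 and Uchl1, which release ubiquitin from small adducts and precursors, both fell. Uchl3 had 7.89 and 7.63 in Dicer-deficient cells against 9.02, 8.94 and 8.98 in wild-type cells (change -1.22, adjusted p = 0.000279). Uchl1 had 8.16 and 8.42 against 9.37, 9.29 and 9.16 in wild-type cells (change -0.98, adjusted p = 0.000956). Of 15 ovarian tumour (OTU) proteases, Otud1, Otud6b and Otud4 rose, with changes of 0.79, 0.62 and 0.36, and 0 fell. Of 11 metalloproteases of the JAMM class and their inactive relatives, the endosomal Stambp and its relative Stambpl1 rose by 0.75 and 0.70, and Mpnd had a change of -0.31. Mindy3 was the 1 of 5 MINDY and Zup1 genes that fell (-0.51), and none of 3 Josephin genes was called in limma. Cyld, Uspl1 and Pan2, which resemble the family but have other names, were not called either. Uchl3, Uchl1 and Stambp kept their call without each array. Otud1, Otud6b, Otud4, Stambpl1, Mpnd and Mindy3 lost it without 1 or more arrays (adjusted p up to 0.187), each of them without a Dicer-deficient array.

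Of 15 genes for protein partners of these proteases, 2 rose and 1 fell, with a median change of 0.13. The share called was 20%, against 17.1% of all genes. Among all genes with a mean signal above the median of all probe sets, as all 15 had, it was 27.9%. Atxn7l3, the subunit that activates Usp22 in the SAGA module, had 7.47 and 7.25 in Dicer-deficient cells against 7.84, 7.81 and 7.77 in wild-type cells (change -0.45, adjusted p = 0.0139). Atxn7l1, of the same protein family, rose by 0.45, and G3bp2, a stress granule protein related to the Usp10 partner G3bp1, rose by 0.41. Of 16 measured genes for known substrates, 1 rose and 3 fell, with a median of 0.00. This share of 25% was near the 27.9% of all genes with a mean signal above the median of all probe sets. The ubiquitin ligase gene Mdm2, whose product is a Usp7 substrate, fell, with 8.24 and 8.46 in Dicer-deficient cells against 8.85, 8.88 and 8.81 in wild-type cells (change -0.50, adjusted p = 0.00887). Uhrf1 and Fancd2 had -0.43 and -0.28, and Mycn rose by 0.52. Each of these 7 calls was lost without 1 or more arrays, a Dicer-deficient array among them, with adjusted p up to 0.211. The ubiquitin-activating enzyme gene Uba6 rose by 0.58 (adjusted p = 0.00718, but 0.0631 and 0.108 when 1 Dicer-deficient array or the other was left out). In the ISG15 pathway, the conjugating enzyme Ube2l6 was 2.33-fold higher, at 7.77 and 7.33 in Dicer-deficient cells against 6.28, 6.46 and 6.24 in wild-type cells (change 1.22, adjusted p = 0.00113). It kept its call without each array, while Uba7, Herc6 and Usp18 of the same pathway did not pass.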

How the data were processed

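Total RNA of asynchronous ES cells was hybridised to Affymetrix arrays as biotin-labelled cRNA, per the labels' protocols. The authors deposited 1 table of normalized log2 values for 35556 probe sets on 5 arrays, rounded to 2 decimals. Background correction, summarisation, normalization and log base are not given in the sources used here; log2 was read from the range of the values. Probe sets were named through the platform annotation, which can be old: 21789 had 1 symbol, 1621 several and 12146 none. Of the 54 members, 53 were found by gene identifier in a GRCm38.p6 gene table.

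limma's lmFit and eBayes (limma 3.58.1, R 4.3.3) compared Dicer-deficient with wild-type arrays with no covariate, with 3 residual and 4.54 prior degrees of freedom, and Benjamini-Hochberg adjustment over 19938 genes. An exact permutation of 3 against 2 arrays cannot go below p = 0.1, so none is given. The fit was tested on simulated data. Tables and figures used Python 3.11.15, pandas 2.3.3, numpy 2.4.6 and matplotlib 3.10.9. Members and gene lists were chosen with earlier results of these data known. Values on each array are given for called members, for a fixed set (Usp1, Usp5, Usp7, Usp9x, Usp14, Usp16, Usp18, Usp21, Usp22, Usp26, Usp28 and Usp44), for the 3 members with the highest and the 3 with the lowest mean signal, and for Usp3, chosen after its values were seen. From each list up to 4 called genes are named. Usp49 and Usp17le had no probe set with that symbol alone and are not reported here.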

Additional observations from a re-analysis of the deposited data

How the results depend on the processing

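With quantile normalization again, median centring, array weights, robust moderation, an intensity trend, averaged probe sets, dim genes left out or all 35556 probe sets tested, 5 to 9 members were called higher and 4 or 5 lower. The median change was 0.0663 after quantile normalization again and 0.0742 without dim genes, where 42 members were tested. Against a minimum change of 1.2-fold, 1 member was called higher (Usp25) and 3 lower (Usp26, Usp44 and Usp11), and 1144 of all genes against 3404. With the replicate number as a block, 1 was called higher and 1 lower (Usp25 and Usp44), and 894 of all genes. Wild-type array 3 has no Dicer-deficient array of its number and adds nothing to that contrast, and fewer residual degrees of freedom are left. The changes are thus those without that array, such as 1.705 for Usp25. The correlation of deviations of same-numbered arrays was 0.0492 and 0.00528, so the numbers were not taken to pair the arrays. Leaving out each array gave 1 to 7 members higher, 1 to 4 lower, medians from -0.0033 to 0.0633, and 973 to 2956 calls over all genes; fewer arrays then estimate the spread, and with 1 Dicer-deficient array left that array is assumed to vary like the wild type. Usp7, near 0, had -0.015 under the block and -0.0433 to 0.0767 as arrays were left out. Leaving out Usp6nl and Usp46os2, chosen after seeing the data, kept 7 and 5 calls. Dim genes were those with a mean signal up to 5.41, Usp26 among them. Signal over background was not analysed here.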
